A study of Mus musculus with 7 samples.

Results

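The transcripts described here encode the enzymes that start and extend the heparan sulfate chain. They comprise 5 enzymes that build the linker between core protein and chain (Xylt1, Xylt2, B4galt7, B3galt6, B3gat3) and the 5 members of the exostosin family (Ext1, Ext2, Extl1, Extl2, Extl3). They were chosen by gene symbol, and all 10 were found among the 48709 genes counted. RNA from kidneys of male mice was sequenced in 4 animals labelled as a double knockout of Hs3st3a1 and Hs3st3b1 (DKO, replicates 1 to 4) and in 3 wild-type animals (WT, replicates 1, 2 and 4). Each library carries its own animal number, so the replicate is the animal. The sources used here do not state the age or strain, which exons were deleted, or whether the deletion was limited to a cell type. The study's title names kidney and glomerular size, and genotype is the only factor the labels name.

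Heparan sulfate is made in the Golgi on serine residues of core proteins. A xylosyltransferase adds xylose, a pair of galactosyltransferases then adds galactose and a further galactose, and a glucuronosyltransferase closes the linker. EXTL3 commits the linker to heparan sulfate by adding the first N-acetylglucosamine, and the complex of EXT1 and EXT2 then alternates glucuronic acid and N-acetylglucosamine. The same linker also carries chondroitin sulfate. Chains of this kind sit on agrin and perlecan in the glomerular basement membrane, and on syndecans and glypicans at cell surfaces. Hs3st3a1 and Hs3st3b1, the deleted genes, add a sulfate to such chains after they have been made.

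Total counts ranged from 18330929 to 24259400 per DKO library and from 19114393 to 22610701 per WT library. Hs3st3a1 received 0 to 3 reads in DKO libraries and 12 to 29 in WT libraries. Hs3st3b1 received 33 to 108 reads in DKO libraries and 56 to 112 in WT libraries, and since the deleted part is not given here its count does not check the label. A neomycin resistance cassette received 73 to 125 reads in DKO libraries and 0 in each WT library. All 15 kidney markers examined, of podocytes, proximal tubule, thick ascending limb, distal tubule and collecting duct, were tested and hence present. DKO replicate 1 stood apart in 4 skeletal muscle genes (Acta1, Ckm, Myh4, Tnnt3), whose summed level was 63.7 CPM there, at most 2.10 CPM in the other DKO libraries and at most 0.741 CPM in WT libraries. CPM are gene counts relative to library size, scaled here between libraries with edgeR's TMM factors.

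No member of the group passed the test between genotypes at a Benjamini-Hochberg adjusted p of 0.05 (edgeR quasi-likelihood test, adjusted over all 15394 genes tested). That test called 0% of all genes, while 21.1% of them had an unadjusted p under 0.05. DESeq2 called 4.37% of genes and no member, and gave no adjusted p for Xylt1, B3galt6 and Extl1. All 10 members passed the low-count filter, 5 with a log2 fold change above 0 (53.2% of all tested genes) and 5 below 0 (46.8% of all tested genes). In 4 of the 10 the DKO libraries all lay on one side of the WT libraries, as was so for 17.4% of all tested genes. They were B3galt6 and B3gat3, lower in DKO (9.04% of all tested genes), and Extl1 and Extl2, higher in DKO (8.34%). The median log2 fold change was 0.08 over the members and 0.04 over all tested genes. It was -0.22 over the 5 linker enzymes, of which 4 were below 0, and 0.23 over the 5 exostosin genes, of which 4 were above 0. In a fit corrected for exon length and GC content the median was -0.21 over the linker enzymes and 0.07 over the exostosin genes.

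Since B3galt6, B3gat3, Extl1 and Extl2 are the members whose groups were apart, the 250 bases upstream of a RefSeq start of each (GRCm38.p6) are shown. Each is written 5′ to 3′ on the strand of its gene. The window of B3galt6 is chr4:155992679-155992928 (minus strand), that of B3gat3 is chr19:8920143-8920392 (plus strand), that of Extl1 is chr4:134372548-134372797 (minus strand) and that of Extl2 is chr3:116007199-116007448 (plus strand). Capitals mark matches, on either strand, to the GC box, with letters GGGCGG, the CCAAT box, with letters CCAAT, the TATA box, with letters TATAAA, the E-box, with letters CACGTG, and the ETS core, with letters CCGGAAGT. In B3galt6 they mark a repeated unit of 23 bases, CGAGTCGCGCAGGCGCCTTCCAG.
B3galt6: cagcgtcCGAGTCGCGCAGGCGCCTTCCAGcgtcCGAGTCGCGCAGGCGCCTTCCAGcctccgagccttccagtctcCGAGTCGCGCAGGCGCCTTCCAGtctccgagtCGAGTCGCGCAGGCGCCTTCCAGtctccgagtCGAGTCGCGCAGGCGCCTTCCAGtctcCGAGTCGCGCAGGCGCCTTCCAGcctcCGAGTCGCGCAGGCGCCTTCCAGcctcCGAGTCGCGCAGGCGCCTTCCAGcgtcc
B3gat3: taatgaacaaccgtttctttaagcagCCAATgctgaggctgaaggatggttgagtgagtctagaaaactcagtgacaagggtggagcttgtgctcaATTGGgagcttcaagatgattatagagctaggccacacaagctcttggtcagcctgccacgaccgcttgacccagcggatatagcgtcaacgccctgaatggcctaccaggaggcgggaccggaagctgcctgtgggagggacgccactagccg
Extl1: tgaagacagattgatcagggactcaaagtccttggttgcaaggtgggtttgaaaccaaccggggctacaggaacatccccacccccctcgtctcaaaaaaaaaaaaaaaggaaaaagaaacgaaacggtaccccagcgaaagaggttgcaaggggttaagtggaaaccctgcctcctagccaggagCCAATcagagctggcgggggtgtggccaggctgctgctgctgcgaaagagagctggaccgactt
Extl2: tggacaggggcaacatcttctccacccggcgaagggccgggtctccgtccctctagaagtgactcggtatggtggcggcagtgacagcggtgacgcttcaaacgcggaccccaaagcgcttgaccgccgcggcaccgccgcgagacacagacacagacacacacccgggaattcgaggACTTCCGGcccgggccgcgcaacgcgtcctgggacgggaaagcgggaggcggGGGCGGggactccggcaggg

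The B3galt6 window held 8 copies of that unit, the letters whose exact copies cover most of the window, searched for after the window was seen. It held none of the other letters searched. The unit occurred in 4 of 32851 RefSeq windows of the same length (0.0122%). The other 3 belong to Sdf4, the gene that starts opposite B3galt6 on the other strand. Each of these 3 overlaps the B3galt6 window in position, so the 4 windows are not separate stretches of DNA. B3gat3 held 2 CCAAT matches and Extl1 held 1, letters present in 33.8% of windows. Extl2 held 1 GC box (32.7% of windows) and 1 ETS core (2.88%). TATAAA (12.4% of windows) was in none of these 4 windows and CACGTG (6.02%) was in none either, and no match overlapped another. The share of G and C was 71.6% in B3galt6, 68.8% in Extl2, 54.4% in B3gat3 and 53.2% in Extl1, against a median of 52.4% over all windows. The members lower in DKO and the members higher in DKO thus each held a GC-rich window and one near the median. RefSeq lists another start for Extl2, whose window held 1 CACGTG and is not shown, and the start listed for Extl1 lies inside the GENCODE gene. The B3gat3 window runs from upstream into the first bases of the GENCODE gene.

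Transcript levels differed widely among the members. Per kb of merged exons, the level averaged over the 7 libraries was highest for B3gat3, at 18.8 CPM per kb, and lowest for Xylt1, at 0.296 CPM per kb, a 63.5-fold span. Extl2 came second at 11.7 CPM per kb. Both were apart from every member below them, since the lowest Extl2 library (9.54 CPM per kb) lay above the highest B4galt7 library (4.97 CPM per kb).

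Ext1, B4galt7, Ext2, Extl3 and Xylt2 followed at 4.02, 3.87, 3.10, 2.54 and 2.14 CPM per kb. Neighbours among these 5 overlapped over the libraries and were not told apart. B3galt6, at 1.17 CPM per kb, lay below all of them. Extl1, at 0.367 CPM per kb, and Xylt1 overlapped at the bottom. With the longest transcript in place of merged exons, Ext2 (6.10 CPM per kb) stood above B4galt7 (5.10 CPM per kb) and Ext1 (4.23 CPM per kb), because the merged exons of Ext2 (7328 nt) are longer than its longest transcript (3721 nt).

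**Figure D1:**
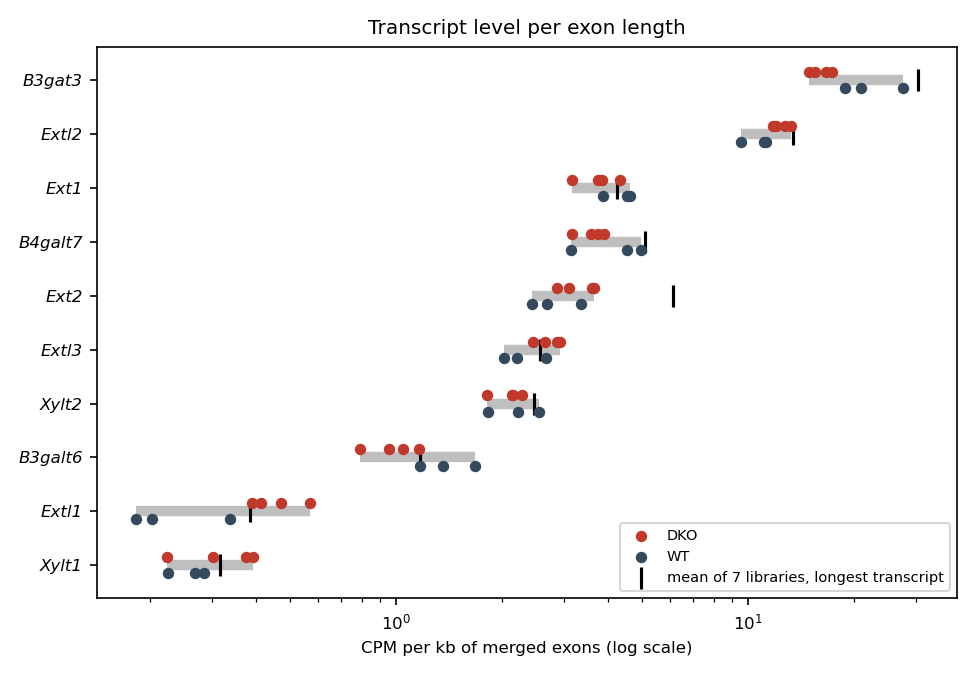
Level of each member per kb of merged exons, in CPM per kb on a log axis, with 1 point per library (4 DKO above, 3 WT below), a grey bar for the range of all 7 libraries and a black tick for the mean per kb of the longest transcript. B3gat3 (14.9 to 27.6) and Extl2 (9.54 to 13.2) lie above the other members, and Extl1 and Xylt1 lie below 0.57.

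Among the linker enzymes, the xylosyltransferases start the chain, and their transcripts did not separate the genotypes. Xylt1 (chromosome 7, positions 117380979 to 117673580 on GRCm38, plus strand) was at 2.16, 3.62, 2.92 and 3.80 CPM in DKO replicates 1 to 4, and at 2.18, 2.59 and 2.74 CPM in WT replicates 1, 2 and 4. DKO replicate 1 lay below every WT library and the other DKO libraries lay above them (log2 fold change 0.32, SE 0.27, edgeR adjusted p 0.516). Without DKO replicate 1, the library with muscle transcripts, the Xylt1 groups were apart (log2 fold change 0.46), as were those of 31.6% of all genes. Without DKO replicate 4 the log2 fold change of Xylt1 was 0.21. With 42 to 93 reads per library, Xylt1 had a counting error of 12.96%, next to a coefficient of variation of 23.9% among DKO animals and 11.7% among WT animals.

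Xylt2 (chromosome 11, 94663851 to 94677515, minus strand) was at 8.54, 9.09, 7.23 and 8.53 CPM in DKO and at 8.82, 7.25 and 10.2 CPM in WT. The DKO values lay almost entirely within the WT range, and the log2 fold change was -0.07 (95% interval -0.47 to 0.33, edgeR adjusted p 0.851). Per kb, Xylt2 was at 2.10 ± 0.199 in DKO and 2.20 ± 0.368 in WT (CPM per kb, SD, n = 4 and 3), and Xylt1 at 0.324 ± 0.0775 in DKO and 0.260 ± 0.0303 in WT. Xylt2 was thus the more abundant xylosyltransferase transcript in both genotypes, and the ranges over the 7 libraries did not overlap.

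B4galt7 encodes the enzyme that adds the first galactose to xylose. It lies on chromosome 13 (55599896 to 55610443, plus strand) and was at 10.4, 10.9, 11.3 and 9.18 CPM in DKO and at 13.1, 14.4 and 9.09 CPM in WT. WT replicate 4 lay below every DKO library and the other WT libraries lay above them, so the groups overlapped through 1 animal. The log2 fold change was -0.22 (SE 0.19, edgeR adjusted p 0.510). It was -0.40 without WT replicate 4 (unadjusted p 0.0407, groups apart, as for 21.7% of all genes) and -0.10 without WT replicate 2. An antisense gene, Gm15911, shares 110 nt with B4galt7 exons. The library kit does not mark strand, but Gm15911 received at most 1 read in any library.

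B3galt6, a single-exon gene, encodes the enzyme that adds the other galactose. It lies on chromosome 4 (155989466 to 155992649, minus strand). The window with 8 repeats lies upstream of its RefSeq start and overlaps windows of Sdf4. The level of B3galt6 was 3.70, 3.05, 2.51 and 3.35 CPM in DKO and 3.74, 4.34 and 5.35 CPM in WT. All DKO libraries were lower than all WT libraries, but DKO replicate 1 and WT replicate 1 were nearly equal. The DKO mean was 3.15 ± 0.502 CPM and the WT mean 4.47 ± 0.814 CPM (SD, n = 4 and 3). With a log2 fold change of -0.50 (95% interval -1.02 to 0.02), the edgeR adjusted p was 0.249 and the unadjusted p 0.0564. Libraries held 49 to 113 reads, a counting error of 11.4%.

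B3gat3 encodes glucuronosyltransferase I, which closes the linker, and it was the most abundant member. The gene is on chromosome 19 (8920374 to 8927236, plus strand). Its level was 44.9, 38.6, 40.2 and 43.0 CPM in DKO replicates 1 to 4 and 54.0, 48.9 and 71.3 CPM in WT replicates 1, 2 and 4. The highest DKO library lay below the lowest WT library, and the DKO animals were close together (coefficient of variation 6.77%, against 20.3% in WT). The mean was 41.7 ± 2.82 CPM in DKO and 58.1 ± 11.8 CPM in WT (SD, n = 4 and 3), a log2 fold change of -0.48 (95% interval -0.84 to -0.12). This had an unadjusted p of 0.0133, a value under 0.05 that 11.3% of all tested genes reached in that direction, and an edgeR adjusted p of 0.167. WT replicate 4 was the highest library, and without it the log2 fold change was -0.31 with an unadjusted p of 0.0611. With 734 to 1507 reads per library its counting error was 3.15%.

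**Figure D2:**
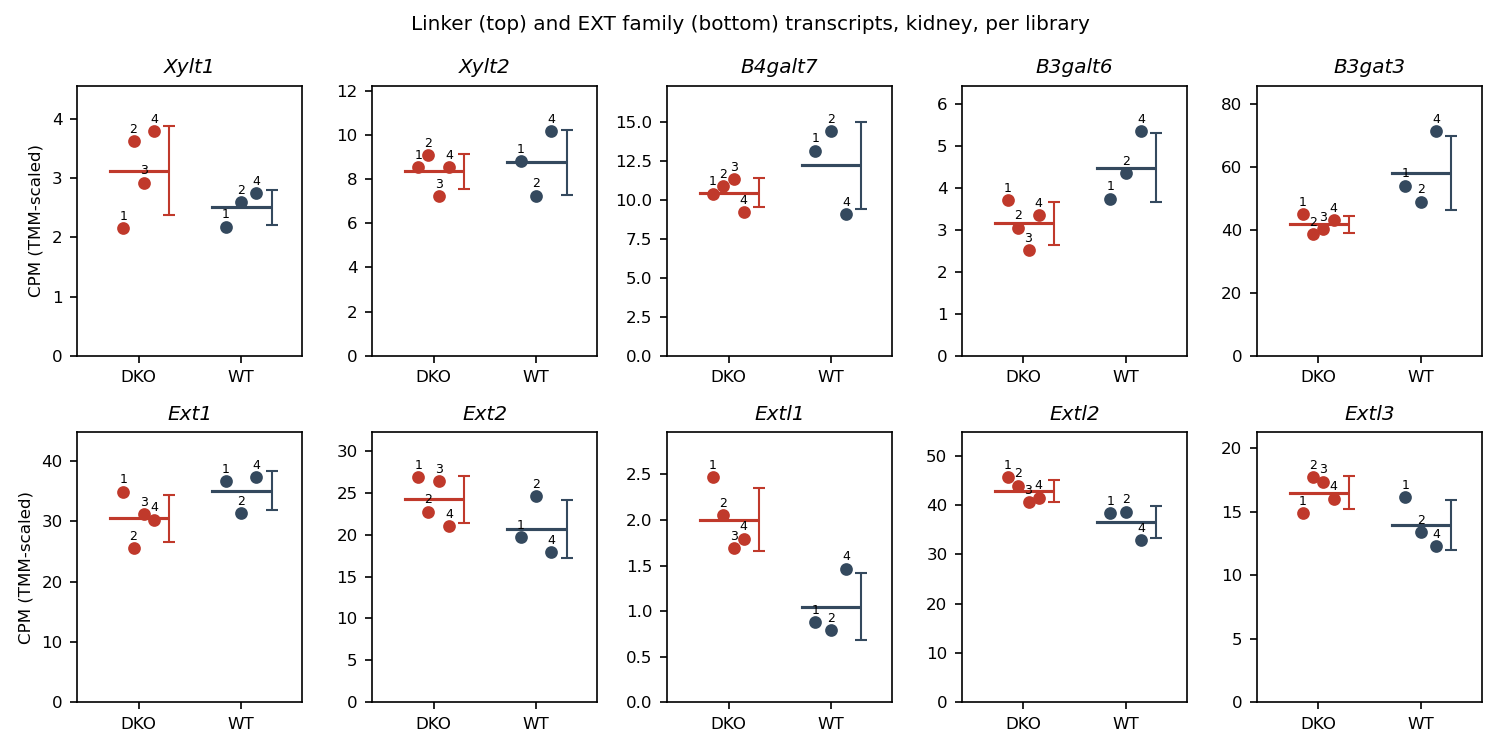
CPM of each member in every library, with replicate numbers beside the points (4 DKO, red, left; 3 WT, dark, right), a bar for the group mean and a whisker of 1 SD. B3galt6 and B3gat3 lie lower, and Extl1 and Extl2 higher, in all DKO libraries, while the other 6 members overlap.

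Ext1 and Ext2 encode the subunits of the polymerase, and inherited loss of either causes multiple exostoses in humans. Ext1 (chromosome 15, 53064038 to 53346159, minus strand) was at 34.9, 25.5, 31.2 and 30.2 CPM in DKO and at 36.6, 31.4 and 37.2 CPM in WT. DKO replicates 2 to 4 were lower than all WT libraries, and DKO replicate 1 lay within the WT range. The log2 fold change was -0.20 (SE 0.16, edgeR adjusted p 0.459). Without DKO replicate 1 the Ext1 groups were apart, with a log2 fold change of -0.28 and an edgeR adjusted p of 0.307, in a fit where 31.6% of all genes were apart. Without DKO replicate 2 the log2 fold change was -0.12.

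Ext2 (chromosome 2, 93661028 to 93822568, minus strand) was at 26.8, 22.7, 26.3 and 20.98 CPM in DKO and at 19.7, 24.6 and 17.9 CPM in WT. Here WT replicate 2 lay among the DKO libraries and the other WT libraries lay below them. The log2 fold change was 0.23 (SE 0.17, edgeR adjusted p 0.449). It was 0.36 without WT replicate 2, with groups apart as for 32.3% of all genes, and 0.13 without WT replicate 4.

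The subunits were set against each other within each library, where scaling between libraries has no effect. Reads of Ext1 per read of Ext2 numbered 1.30, 1.12, 1.18 and 1.44 in DKO replicates 1 to 4, and 1.86, 1.28 and 2.08 in WT replicates 1, 2 and 4. WT replicate 2 lay within the DKO range and the other WT libraries lay above it. The mean log2 ratio was 0.33 ± 0.16 in DKO and 0.77 ± 0.37 in WT (SD, n = 4 and 3), a difference of -0.44 that was described and not tested. It lay between -0.65 and -0.30 when each library was left out in turn. Per kb of merged exons, Ext1 was 1.15 ± 0.128 times Ext2 in DKO and 1.58 ± 0.377 times Ext2 in WT.

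**Figure D3:**
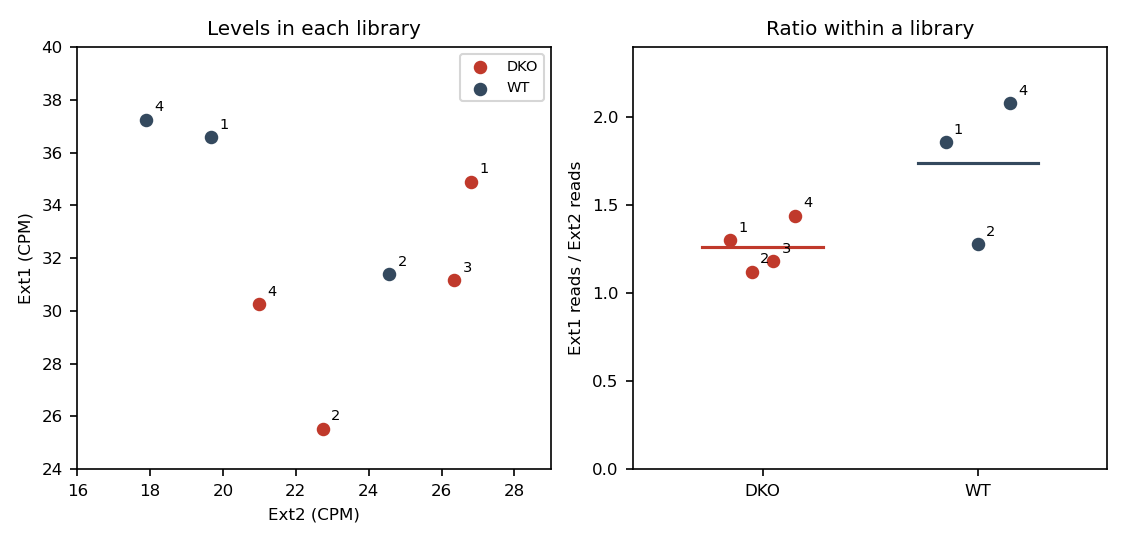
Left, Ext1 against Ext2 in CPM for each library (the axes do not start at 0); right, Ext1 reads divided by Ext2 reads in each library, with a bar for the group mean and replicate numbers beside the points (4 DKO, red; 3 WT, dark). The DKO ratios lie between 1.12 and 1.44 and the WT ratios between 1.28 and 2.08.

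Genes whose pattern over the 7 libraries was most like that of Ext1 or Ext2 were found from the root mean square difference of centred log2 CPM. Nearest to Ext1 were Hsdl2 (0.0443), Znhit6 (0.0495) and 2210016L21Rik (0.0526), against a median of 0.361 over the other 15393 tested genes. Nearest to Ext2 were Rragc (0.0343), Clmn (0.0484) and Efr3a (0.0485), against a median of 0.372. These names describe likeness over 7 libraries and were not tested.

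Among the exostosin-like genes, Extl3, which encodes the enzyme that commits the linker to heparan sulfate, overlapped between genotypes. It lies on chromosome 14 (65052060 to 65149855, minus strand) and was at 14.9, 17.7, 17.4 and 16.04 CPM in DKO and at 16.1, 13.4 and 12.3 CPM in WT. WT replicate 1 lay among the DKO libraries and the other WT libraries lay below them. The log2 fold change was 0.24 (SE 0.16, edgeR adjusted p 0.397), and 0.16 without WT replicate 4.

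Extl2 encodes a transferase that can add N-acetylglucosamine to a phosphorylated linker, a step that stops chain growth. It lies on chromosome 3 (116007462 to 116029017, plus strand). Its level was 45.6, 43.9, 40.6 and 41.5 CPM in DKO and 38.3, 38.7 and 32.9 CPM in WT. Every DKO library lay above every WT library, with a gap smaller than the spread within either group. The mean was 42.9 ± 2.26 CPM in DKO and 36.6 ± 3.24 CPM in WT (SD, n = 4 and 3), and the log2 fold change was 0.23 (95% interval -0.08 to 0.54, edgeR adjusted p 0.355, unadjusted p 0.130).

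Extl1 encodes a transferase with N-acetylglucosamine activity on growing chains, and it had the largest fold change of the 10 members. The gene is on chromosome 4 (134356372 to 134383850, minus strand). It was at 2.46, 2.05, 1.69 and 1.80 CPM in DKO and at 0.882, 0.794 and 1.47 CPM in WT. Every DKO library lay above every WT library, and WT replicate 4 came close to DKO replicate 3. The mean was 2.0 ± 0.344 CPM in DKO and 1.05 ± 0.366 CPM in WT (SD, n = 4 and 3), a 1.897-fold difference (log2 fold change 0.92, 95% interval 0.19 to 1.66). Its unadjusted p was 0.0187, where 9.86% of all tested genes were under 0.05 in that direction, and its edgeR adjusted p was 0.179. The unadjusted p was 0.0698 without WT replicate 1 and 0.0743 without WT replicate 2. Extl1 rested on few reads, 33 to 56 per DKO library and 15 to 31 per WT library, a counting error of 17.3%. Counting errors given here treat reads as independent and cover counting only.

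**Figure D4:**
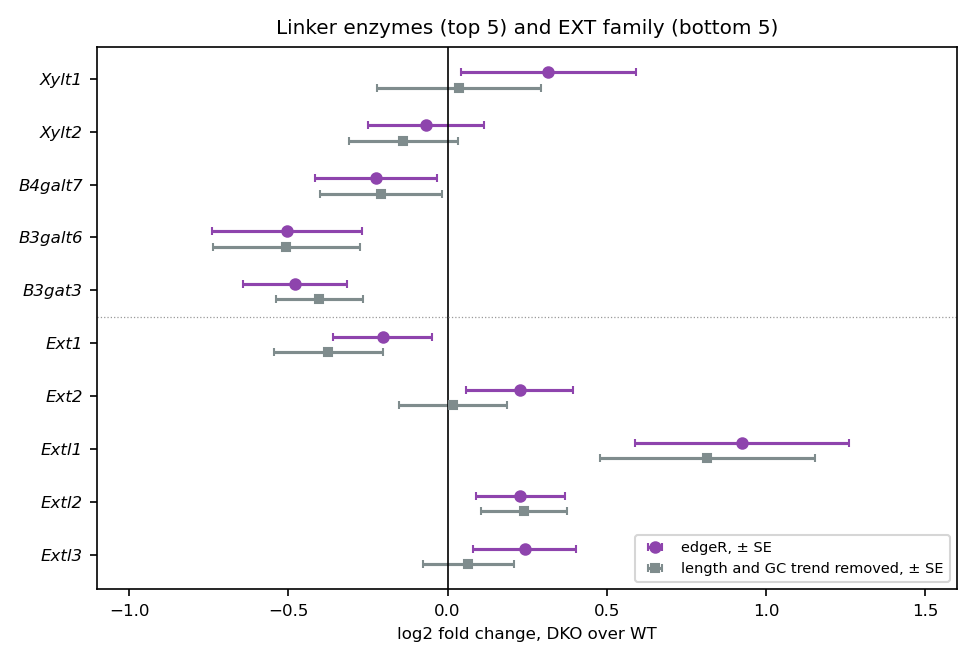
Log2 fold change of each member, DKO over WT, from edgeR (circles) and from the fit corrected for exon length and GC content (squares), each with its SE. The squares of Ext2 (0.02), Xylt1 (0.04) and Extl3 (0.07) lie near 0, and those of B3galt6, B3gat3, Extl1 and Extl2 stay on the side of their circles.

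Fold changes across all genes ran with exon length in these libraries. Of the genes in the longest quartile (6378 nt of exons or more) 76.7% had a log2 fold change above 0, against 28.1% in the shortest quartile (up to 2365 nt). Ext2, Xylt1 and Ext1 belong to the longest quartile, where the median log2 fold change was 0.25. Ext2 (0.23) and Xylt1 (0.32) were near that median, whereas Ext1 (-0.20) lay on the other side of 0. The quartile of 2366 to 4008 nt, with a median of -0.04, held B4galt7, Xylt2, B3galt6, B3gat3 and Extl2. With a length and GC trend removed from each library, Ext2 was at 0.02, Xylt1 at 0.04 and Extl3 at 0.07, and Ext1 was at -0.37 (unadjusted p 0.0519, edgeR adjusted p 0.314). B3gat3 (-0.40), B3galt6 (-0.51), Extl1 (0.82) and Extl2 (0.24) moved by 0.11 or less, and their groups were again apart, as for 13.2% of all genes in that fit. Unadjusted p under 0.05 was reached there by 16% of genes and, among the members, by B3gat3 and Extl1. The part of length and GC in the members' values was not tested further.

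**Figure D5:**
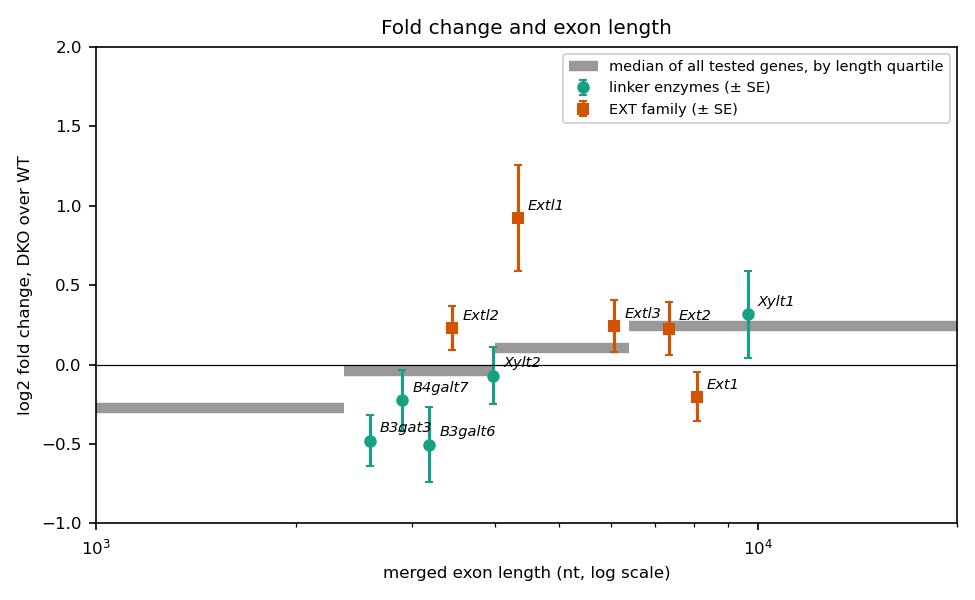
Log2 fold change (DKO over WT, with SE) against merged exon length on a log axis for the 5 linker enzymes (circles) and the 5 exostosin genes (squares), with grey bars for the median of all tested genes in each length quartile (the outer bars run past the axis). Medians run from -0.27 in the shortest to 0.25 in the longest quartile.

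Markers of some cell types also differed between the groups. The summed level of 5 podocyte markers was 99.8 to 128 CPM in DKO libraries and 84.5 to 96.1 CPM in WT libraries. That of 5 proximal tubule markers was 6425 to 7236 CPM in DKO and 4391 to 5822 CPM in WT, and that of 6 lymphocyte markers was 2.41 to 4.2 CPM in DKO and 4.13 to 11.6 CPM in WT. Adipose markers (5 genes) summed to 336 to 909 CPM in DKO and 168 to 731 CPM in WT, and 5 red cell markers to 214 to 425 CPM in DKO and 116 to 897 CPM in WT. Markers of the thick ascending limb summed to 3218 to 5606 CPM in DKO and 4909 to 8239 CPM in WT. That sum held 2 genes that went opposite ways. Umod was at 2835 to 5242 CPM in DKO and 4666 to 7937 CPM in WT. Slc12a1 was at 272 to 384 CPM in DKO and 244 to 302 CPM in WT. Markers of the distal tubule and collecting duct (3 genes) summed to 761 to 1189 CPM in DKO and 704 to 1106 CPM in WT. Of these, Atp6v1g3 was lower in every DKO library, at 61.4 to 89.95 CPM against 98.7 to 244 CPM in WT. Slc12a3 and Aqp2 overlapped between the groups. Adrenal markers (6 genes) summed to 2.90 to 5.67 CPM in DKO and 1.80 to 4.54 CPM in WT, with Cyp11b2 and Cyp21a1 at 0 throughout. Urothelial markers (5 genes) summed to 42.6 to 50.9 CPM in DKO and 38.3 to 72.6 CPM in WT. Within that sum Upk1b was higher in every DKO library (9.77 to 11.9 CPM, against 7.41 to 9.24 CPM in WT). Upk3a was lower in every DKO library (18.3 to 22.18 CPM, against 22.23 to 41.3 CPM in WT), and the rest overlapped. Groups were apart in 17.4% of all tested genes. The podocyte and proximal tubule sums did not overlap between the groups, and the others did. In bulk kidney RNA fewer cells of a type and less RNA per cell cannot be told apart, and the part of cell makeup in the members' values was not tested.

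The spread between animals differed among the members. The median coefficient of variation was 10.6% over the members and 18.4% over all tested genes in DKO, and 16.7% and 19.7% in WT. Above the median of all genes lay Xylt1 in DKO (23.9%) and Extl1 (34.9%), B4galt7 (22.7%) and B3gat3 (20.3%) in WT. These medians are descriptions and were not tested.

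Other genes of the pathway were read from lists of 8 kinds, and none of their members passed the edgeR test in either direction. For comparison, log2 fold changes were above 0 in 53.2% of all tested genes, groups were apart in 17.4%, and DESeq2 called 4.37%. Both modifiers of the linker xylose were above 0 in DKO. Fam20b, the kinase that phosphorylates the xylose, was at 52.2 ± 8.87 CPM in DKO and 41.5 ± 10.1 CPM in WT, and Pxylp1, the phosphatase that removes the phosphate, was at 6.46 ± 1.51 CPM in DKO and 4.56 ± 1.51 CPM in WT (SD, n = 4 and 3; log2 fold changes 0.33 and 0.50, edgeR adjusted p 0.350 and 0.304). These groups overlapped.

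Among 12 genes that supply sugar nucleotides to these enzymes, 7 were above 0 and 5 below (median log2 fold change 0.12). Ugdh, which makes UDP-glucuronic acid, was at 344 ± 90.7 CPM in DKO and 231 ± 107 CPM in WT. Ugp2, which makes UDP-glucose, was at 212 ± 35.7 CPM in DKO and 234 ± 25.4 CPM in WT. Groups were apart in 1 of the 12, against 17.4% of all tested genes. It was Gnpnat1, an enzyme on the way to UDP-N-acetylglucosamine, chosen for mention once its value was known. Its log2 fold change was -0.78 (edgeR adjusted p 0.177, DESeq2 adjusted p 0.0654).

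The chondroitin chain, the alternative to heparan sulfate on the same linker, had 5 tested genes of 6, 1 above 0 and 4 below (median -0.16). Csgalnact1, which starts that chain, was at 13.7 ± 6.40 CPM in DKO and 15.8 ± 1.57 CPM in WT, and Csgalnact2 at 11.5 ± 1.39 CPM in DKO and 13.1 ± 2.27 CPM in WT. Their groups overlapped.

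Of 12 tested genes that modify heparan sulfate or supply its sulfate, out of 15, 9 were above 0 and 3 below (median 0.24). The most abundant, Papss2 and Papss1, make the sulfate donor. Groups were apart and higher in DKO in 2 of the 12 (8.34% of all tested genes), and apart and lower in 1 (9.04%). They were apart for Papss2 (log2 fold change 1.04, edgeR adjusted p 0.163, DESeq2 adjusted p 0.0227), and Papss1 had a log2 fold change of -0.22. Groups were also apart for Slc35b2, a sulfate donor transporter lower in DKO (-0.70, edgeR adjusted p 0.163, DESeq2 adjusted p 0.0387). The same held for Glce, an epimerase that was higher (0.40, edgeR adjusted p 0.236, DESeq2 adjusted p 0.223). Slc35b2 and Glce were picked with their values known. The other 3-O-sulfotransferases had 2 tested genes of 5, Hs3st1 (log2 fold change 0.10) and Hs3st6 (0.12), and both overlapped between groups.

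Core proteins had 12 tested genes of 13, with 5 above 0 and 7 below (median -0.03). Sdc4, the most abundant gene of any of these lists, was at 9662 ± 1480 CPM in DKO and 10038 ± 1533 CPM in WT, and Gpc4 at 86.1 ± 14.2 CPM in DKO and 60.2 ± 20.7 CPM in WT. Groups were apart in 1 of the 12, against 17.4% of all tested genes. It was the glypican Gpc5, lower in DKO and again picked with its value known (log2 fold change -0.78, edgeR adjusted p 0.189). DESeq2 gave no adjusted p for Gpc5. Of 8 tested genes of heparan sulfate breakdown, out of 9, 6 were above 0 (median 0.15). Ids, picked with its value known, was apart and higher in DKO, as were 8.34% of all tested genes. The log2 fold change of Ids was 0.50 (edgeR adjusted p 0.178, DESeq2 adjusted p 0.114). Arsg, a lysosomal sulfatase, was at 41.8 ± 15.4 CPM in DKO and 50.01 ± 15.02 CPM in WT.

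Paralogs of the linker enzymes that act on other glycans had 10 tested genes of 12, 5 above 0 and 5 below (median -0.02). B4galt1 was at 419 ± 134 CPM in DKO and 450 ± 218 CPM in WT, and B4galt5 at 159 ± 64.5 CPM in DKO and 171 ± 20.002 CPM in WT. Groups were apart in 1 of the 10, against 17.4% of all tested genes. It was B4galt3, likewise chosen once its value was known (log2 fold change 0.66, edgeR adjusted p 0.163, DESeq2 adjusted p 0.0336).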

How the data were processed

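The deposited raw counts per Ensembl gene were used, per the file headers; the authors' filtered counts were identical rows of them (18797 rows). The authors' signal values, CPM after TMM scaling, gave the symbols, and its values for the members were within 0.648% of those computed here. Per the submitters' processing notes STAR 2.5.2a was used, with GRCm38 (mm10) and GRCh38 named; the sources used here do not name the counter or annotation. Per the labels' protocols the kit was unstranded. The 24 rows that name no mouse gene (at most 0.000697% of counts) were left out.

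The test was edgeR 4.0.16 (R 4.3.3), robust quasi-likelihood, TMM, filterByExpr (minimum count 10, total 15), two-sided, Benjamini-Hochberg over 15394 genes. SE came from the F statistic, and CPM are mean ± SD. Alternatives were DESeq2 1.42.0, limma-voom 3.58.1, other scaling and filters, length and GC offsets (splines with 4 df), blocks, and leaving out each library. Fits were tested on simulated data. Positions and exon lengths came from GENCODE M21, upstream sequences from RefSeq. A blastn 2.17.0 search found no transcript of another gene with at least 97% identity over 100 nt, save the antisense overlap of B4galt7. All 10 members were named, from each other list the 2 most abundant genes as values, and for Ext1 and Ext2 the 3 nearest genes. Other genes are said to have been named after their values were seen. For 1 gene that this rule names, the result is not reported here. Members and lists were chosen with earlier results of these data known. Chi-square statistics per gene between libraries of a group were 40.5 or more, so each counted as 1 sample.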

Additional observations from a re-analysis of the deposited data

Results flagged for a closer look

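Values in the 4 DKO libraries were searched for an animal far from the others, by its gap relative to the range. Of 21 values searched (10 members, the Ext1 to Ext2 ratio and 10 marker sums) 2 stood out, both in DKO replicate 1, and neither was a member. Skeletal muscle markers summed to 63.7 CPM there and to 0.571 to 2.10 CPM in the other DKO libraries. Adipose markers summed to 909 CPM there and to 336 to 413 CPM in the other DKO libraries. Chance flags about 1 in 20 such groups. Without this library the log2 fold change was -0.59 for B3galt6 (unadjusted p 0.0430), -0.52 for B3gat3 (0.0160) and 0.81 for Extl1 (0.0497), by edgeR's quasi-likelihood test. In that fit 3796 of 15231 genes had an unadjusted p under 0.05, and the lowest adjusted p of a member was 0.129. The part of these transcripts in the members' values was not tested.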

How the results depend on the processing

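No member was called under any of the 16 alternatives run, though DESeq2 gave no adjusted p for Xylt1, B3galt6 and Extl1. The count of all genes called was 0 in the edgeR fit, 672 with DESeq2, 66 with no low-count filter and 1 with the replicate block and the length and GC trend removed. It lay between 0 and 7 when 1 library was left out, at 7 without DKO replicate 1 and 1 without WT replicate 2. The count at an unadjusted p under 0.05 was 3250, and 1582 without WT replicate 4. The median log2 fold change of the members was -0.061 with the length and GC trend removed, and -0.044 with the replicate block as well. The fold changes that turned sign were those of Xylt2 (0.0045 with the replicate block, and -0.198 to 0.052 when 1 library was left out, positive without DKO replicate 3 or WT replicate 4) and Ext2 (-0.022 with the replicate block and the length and GC trend removed). The cause was not tested. From 4 to 6 members had groups apart, with 6 without DKO replicate 1 (31.6% of all genes) and without WT replicate 2 (32.3%), against 17.4% of genes with all libraries. Groups that are apart stay so when a library is left out, so this is no sign of stability. Over the 16 alternatives adjusted p ranged from 0.0706 (DESeq2) to 0.497 for B3gat3 and from 0.345 to 0.692 for Extl2. Over the alternatives other than DESeq2 it ranged from 0.188 to 0.614 for B3galt6 and from 0.168 to 0.494 for Extl1. The labels do not say whether replicate numbers pair the animals. Deviations of same-numbered animals correlated at -0.13, 0.16 and 0.14, and those of differently numbered animals at -0.23 to 0.16. With so few animals these values do not settle whether the numbers pair them. The fit with the replicate block called 0 genes, as did the fit with the leading digits of the animal number as a block. Read depth limits Extl1, Xylt1 and B3galt6 most.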
